A study of Mus musculus with 6 samples.

Results

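The proteasome genes of E18.5 mouse growth plate cartilage were compared between embryos with and without a Cre that targets Hnrnpk in chondrocytes. The genes were taken by name as every known gene of the table whose symbol is Psm, one letter from a to g and a number. This gave 48 of the 15803 listed genes. They encode the alpha subunits (Psma), the beta subunits (Psmb), the regulatory ATPases (Psmc), the other regulatory subunits (Psmd), the activators (Psme), the inhibitor Psmf1 and the assembly chaperones (Psmg). RNA of the cartilage growth plate was sequenced as 3 libraries labelled WT, from Hnrnpk fl/fl embryos, and 3 labelled CKO, from Col2a1-Cre;Hnrnpk fl/fl embryos. Both genotypes carry the loxP-flanked Hnrnpk alleles. In the CKO embryos the Col2a1-driven Cre recombinase deletes the flanked exons in cells that have made the Cre, which are chondrocytes and their descendants. Embryos of both sexes were used in the study, and no source used here ties a library to 1 embryo, so that the p-values measure the spread between these libraries, which may be partly technical.

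The 26S proteasome is the protease complex that degrades proteins marked with ubiquitin chains. Its barrel, the 20S core, is built of outer rings of alpha subunits and inner rings of beta subunits, of which Psmb5, Psmb6 and Psmb7 carry the catalytic sites. The 19S regulatory particle on its ends recognizes the ubiquitin chain, removes it and threads the substrate into the barrel with a ring of ATPases. The transcription factor Hif1α, which chondrocytes of the avascular growth plate depend on, is a well known proteasome substrate when oxygen is present. Misfolded collagens and other matrix proteins of chondrocytes can also be cleared in part by the proteasome. Because the complex holds its subunits in fixed proportions, cells are known to adjust the transcription of its genes together.

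The values are CPM, the reads of a gene scaled to a fixed total per library. Between 1153871 and 1454094 reads were recovered per library, so that 1 read was worth 0.688 to 0.867 CPM and 3 reads, taken as the floor of detection, 2.06 to 2.60 CPM. Hnrnpk itself was at 842, 955 and 944 CPM in WT 1 to 3 and 759, 949.9 and 780.0 CPM in CKO 1 to 3. The groups overlapped, so the libraries are called by their labels. These values count the whole gene, while the Cre deletes only the flanked exons. At an earlier embryonic age the paper reported loss of Hnrnpk protein in CKO growth plates by western blot and immunostaining. All 16 genes of a chondrocyte marker list were present, and their summed level was 27975 to 36759 CPM over WT libraries and 6770.2 to 7278 CPM over CKO libraries, with 12 of the 15 tested lower and 0 higher in CKO (limma's adjusted p under 0.05). For other cell types, macrophage markers (15 of 15 in the table) summed to 89.2, 84 and 393 CPM in WT 1 to 3. In CKO 1 to 3 they summed to 228, 280.1 and 231 CPM. Of these Ptprc, Mrc1 and Spi1 had 3 reads or fewer in each genotype, and Cd68 was called higher. Skeletal muscle markers (12 of 12) summed to 81.9, 54 and 244 CPM in WT 1 to 3. In CKO 1 to 3 they summed to 123, 301 and 120.5 CPM. Osteoblast markers (9 of 9) summed to 957 to 1467 CPM over WT libraries and 1643, 588 and 1718 CPM in CKO 1 to 3. Of the 8 tested, 6 had a positive log2 fold change and 1, Col1a2, was called lower. Ibsp and Bglap2 were above the WT libraries in CKO 1 and CKO 3 but not in CKO 2. They were not called at the adjusted threshold (log2 fold changes 1.78 and 1.53, limma's unadjusted p = 0.0257 and 0.0423). Both met the criterion of the study, a log2 fold change beyond 1 in either direction with an unadjusted p under 0.05. The sums were 89.9 to 97.1 CPM over WT libraries and 106 to 118 CPM over CKO libraries for osteoclasts (5 of 8). For endothelium (7 of 8) they were 29.7 to 32.9 CPM over WT libraries and 39.2, 66.4 and 49.4 CPM in CKO 1 to 3. Pecam1, Cdh5, Tie1 and Emcn had 3 reads or fewer in each genotype, and Tek had 0 in WT and 4 in CKO. Most of the endothelial difference came from Eng, with means of 19.5 CPM over WT and 39.9 CPM over CKO libraries, which was not called. Egfl7, the other tested endothelial marker, overlapped between genotypes (log2 fold change -0.05). Red cell markers (6 of 10) gave 0.725 to 6.75 CPM over WT libraries and 2.06, 28.9 and 7.8 CPM in CKO 1 to 3. Lymphocyte markers (2 of 12) gave 0.845 to 2.17 CPM over WT libraries and 2.75, 10.8 and 2.6 CPM in CKO 1 to 3. Epidermal markers (7 of 11, without Krt5 and Krt14) gave 23.7 to 47.8 CPM over WT libraries and 62.8 to 127 CPM over CKO libraries. Most of this difference came from Sbsn, which was called higher, with means of 2.59 CPM over WT and 57.8 CPM over CKO libraries. The other tested epidermal markers, Krt10 and Trp63, overlapped between genotypes and were not called (log2 fold changes 0.41 and -0.23). Among the CKO libraries, CKO 2 had the highest sum of the chondrocyte, macrophage, muscle, osteoclast, endothelial, red cell and lymphocyte markers. It had the lowest sum of the osteoblast and epidermal markers. WT 3 alone held the high WT sum of the macrophage and muscle markers. In bulk cartilage a different mix of cells and a different amount of RNA per cell cannot be told apart, and the part of these shifts in the proteasome values was not tested.

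Most proteasome genes stood higher in the libraries labelled CKO by a modest and similar amount. Of the 46 genes averaging 1 CPM or more, 42 had a positive log2 fold change and 4 a negative one, with a median of 0.39, or 1.31-fold, and quartiles of 0.24 and 0.53. The median of all 12155 genes tested was 0.01, and 50.8% of those genes had a positive value. In 28 of the 46 genes every CKO library lay above every WT library, which was the case for 14.5% of all genes tested, and in 0 of the 46 every CKO library lay below (13.2% of all genes). At limma's adjusted p under 0.05 the genes Psma2, Psmc1, Psmc4 and Psmc5 rose, which is 4 of 46 or 8.70%, against 3.18% of all genes tested that were called higher. No proteasome gene was called lower (2.60% of all genes), while an unadjusted p under 0.05 was reached by 23 genes that were higher and by 1, Psmg4, that was lower (11.2% and 10.1% of all genes). The criterion of the study, which asks for more than 1 unit on the log2 scale in either direction besides an unadjusted p below 0.05, was met by 0 of the 46 (5.30% of all genes higher, 5.10% lower). The upper end of the 95% interval stayed below a doubling in 40 of the 46 genes.

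**Figure D1:**
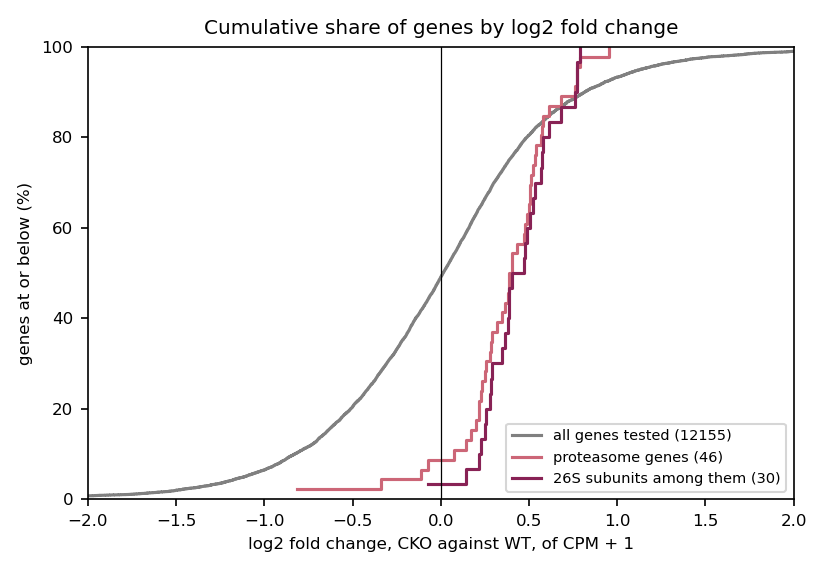
Cumulative share of genes (vertical axis, percent) by log2 fold change between CKO and WT on the scale of CPM + 1 (horizontal axis, cut at -2 and 2) for all 12155 genes tested, the 46 proteasome genes tested and the 30 subunits of the 26S complex among them. The curve of the proteasome genes is steep and lies to the right of 0, with a median of 0.39 against 0.01 for all genes, and 4 of its genes lie left of 0.

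The 4 calls rested on small margins. None of the 4 was called without WT 1, without WT 2, without CKO 1 or without CKO 3, while all 4 remained among 7 calls without WT 3 and among 9 without CKO 2. With fewer libraries the share of all genes called also changed, from 1.13%, 1.10%, 1.09% and 1.01% higher without WT 1, WT 2, CKO 1 and CKO 3 to 2.66% without WT 3 and 5.74% without CKO 2. Among the 41 members averaging 10 CPM or more, a fit on genes of that level called 7 higher (17.1%, against 5.62% of those genes). The recovered reads gave other counts. With edgeR's quasi-likelihood test 5 of 43 members were called (4.85% of all genes) and with DESeq2 3 of 44 (4.08%). On CPM, limma after TMM scaling called 3 of 46 (2.71%) and limma with the replicate number as a term 0 of 46 (1.85%). The median log2 fold change of the proteasome genes stayed between 0.35 and 0.45 over the 6 fits that each left out 1 library, with 40 to 43 of the 46 genes positive. The median deviation of the 46 genes from their WT mean on the log2 scale was -0.067, -0.0031 and 0.077 in WT 1, 2 and 3 and 0.34, 0.50 and 0.38 in CKO 1, 2 and 3. Each library of one genotype was thus apart from each of the other, and CKO 2 was the farthest.

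The promoters of the 4 genes that rose are printed because they are the members past the adjusted threshold, each from 250 bases before to 50 bases after the start site of RefSeq on GRCm38.p6, read 5′ to 3′ on the strand of the gene. Capitals mark matches on either strand to 4 short motifs searched, TGACNNNGC (the core of the antioxidant response element), CCAAT (the box bound by NF-Y), CCGGAAGT (a site of ETS factors) and GGGCGG (the GC box of Sp1). Psma2 is at chr13:14612992-14613291 on the plus strand, Psmc1 at chr12:100109952-100110251 on the plus strand, Psmc4 at chr7:28050043-28050342 on the minus strand and Psmc5 at chr11:106255935-106256234 on the plus strand.
Psma2: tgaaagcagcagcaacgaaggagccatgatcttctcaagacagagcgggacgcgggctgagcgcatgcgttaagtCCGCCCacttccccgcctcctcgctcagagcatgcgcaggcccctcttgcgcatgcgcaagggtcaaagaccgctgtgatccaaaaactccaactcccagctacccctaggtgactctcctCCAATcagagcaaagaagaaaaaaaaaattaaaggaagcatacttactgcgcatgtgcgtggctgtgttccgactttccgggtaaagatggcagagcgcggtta
Psmc1: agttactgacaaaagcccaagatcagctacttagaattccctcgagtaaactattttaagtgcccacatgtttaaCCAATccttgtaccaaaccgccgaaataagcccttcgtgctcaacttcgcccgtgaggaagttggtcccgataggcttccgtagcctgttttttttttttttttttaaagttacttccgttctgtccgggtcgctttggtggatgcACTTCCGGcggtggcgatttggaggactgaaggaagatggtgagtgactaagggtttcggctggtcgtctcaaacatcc
Psmc4: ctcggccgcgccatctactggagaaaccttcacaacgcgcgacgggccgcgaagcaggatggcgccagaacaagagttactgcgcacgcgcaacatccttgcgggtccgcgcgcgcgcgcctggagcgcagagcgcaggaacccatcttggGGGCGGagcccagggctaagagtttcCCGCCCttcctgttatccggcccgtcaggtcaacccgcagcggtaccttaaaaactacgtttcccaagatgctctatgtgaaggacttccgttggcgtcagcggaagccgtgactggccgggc
Psmc5: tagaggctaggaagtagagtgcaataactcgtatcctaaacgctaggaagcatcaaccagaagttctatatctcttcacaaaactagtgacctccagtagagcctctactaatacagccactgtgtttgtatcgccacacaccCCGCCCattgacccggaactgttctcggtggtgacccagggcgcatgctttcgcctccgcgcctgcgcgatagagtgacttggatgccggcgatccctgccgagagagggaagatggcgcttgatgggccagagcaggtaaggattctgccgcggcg
The window of Psma2 holds CCAAT at base -54 and GGGCGG, on the opposite strand, at -175, counted from the start site to the leftmost base of the match. Psmc1 holds CCAAT at -175 and CCGGAAGT, on the opposite strand, at -29. Psmc4 holds GGGCGG at -99 and, on the opposite strand, at -73, and Psmc5 holds it on the opposite strand at -107. No match to TGACNNNGC was found in these 4 windows.

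Promoter windows of the same length were found in the RefSeq table for 40 of the 48 genes, and 1 window was taken for each of 27025 genes of the genome. TGACNNNGC was present in 6 of the 40 windows (15.0%) and in 12.4% of all windows. CCAAT was present in 14 of the 40 (35.0%) and in 38.0% of all. CCGGAAGT was present in 8 of the 40 (20%) and in 3.99% of all, while GGGCGG was in 23 of the 40 (57.5%) and in 35.9% of all. The 6 windows with TGACNNNGC are shown around the match, which is in capitals, with up to 30 bases on each side, because this motif is the known site of Nfe2l1, the factor that raises transcription of proteasome genes when the proteasome is short. They are at chr14:54618004-54618072 for Psmb5 (minus strand), and on the plus strand at chr11:70525318-70525386 for Psmb6, chr14:45329574-45329635 for Psmc6, chr11:107479278-107479319 for Psmd12, chr5:123228129-123228197 for Psmd9 and chr11:30771738-30771806 for Psme4. In Psmc6, Psmd12 and Psme4 the motif is on the strand opposite to the gene, and in Psmd9 it overlaps a GGGCGG.
Psmb5: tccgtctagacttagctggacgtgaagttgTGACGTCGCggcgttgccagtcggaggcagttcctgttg
Psmb6: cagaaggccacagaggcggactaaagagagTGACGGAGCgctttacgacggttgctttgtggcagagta
Psmc6: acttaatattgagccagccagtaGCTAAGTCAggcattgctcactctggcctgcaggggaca
Psmd12: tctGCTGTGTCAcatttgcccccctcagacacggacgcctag
Psmd9: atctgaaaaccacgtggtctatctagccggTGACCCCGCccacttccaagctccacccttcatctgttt
Psme4: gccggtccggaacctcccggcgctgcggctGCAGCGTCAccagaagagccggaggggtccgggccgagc
The log2 fold changes of these 6 genes lay between 0.35 and 0.95 with a median of 0.45, and those of the 32 tested genes whose window lacks the motif between -0.81 and 0.79 with a median of 0.39. The medians of genes with and without a match were 0.40 and 0.40 for CCAAT, 0.44 and 0.40 for CCGGAAGT and 0.40 and 0.44 for GGGCGG. A match of letters is a description and not a site in use.

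The alpha subunits form the outer rings of the barrel and its gate. In all 7 genes Psma1 to Psma7 every CKO library was above every WT library (14.5% of all genes tested). Of the 7, 6 had an unadjusted p under 0.05 (11.2% of all genes, higher) and 1, Psma2, passed the adjusted threshold (3.18%). Psma2 (ENSMUSG00000015671; chromosome 13, 14613240 to 14674236, GRCm38) stood at 489, 525 and 554 CPM in WT 1 to 3 and 838, 829 and 842 CPM in CKO 1 to 3. The CKO libraries differed from each other by little and lay well above the highest WT library (log2 fold change 0.68, 95% interval 0.38 to 0.97, limma's adjusted p = 0.0173). Summed over the ring the level was 3154, 3092 and 3358 CPM in WT 1 to 3 and 4332, 4692 and 4270.0 CPM in CKO 1 to 3, a ratio of the means of 1.38. Psma6 (log2 fold change 0.53), Psma3 (0.49), Psma4 (0.48), Psma7 (0.40), Psma5 (0.37) and Psma1 (0.23) had limma's adjusted p between 0.0634 and 0.407. Psma7 and Psma3, the alpha genes with the most reads, were at 784, 744 and 768 CPM in WT 1 to 3 and 1027, 978 and 1029 CPM in CKO 1 to 3 and at 762, 694 and 797 CPM in WT 1 to 3 and 1034, 1148 and 978 CPM in CKO 1 to 3. In both genes the lowest CKO library was well above the highest WT library.

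Psma8 replaces Psma7 in the proteasome of the testis and was hardly present, at 3.62, 6.75 and 5.07 CPM in WT 1 to 3 and 6.88, 6.5 and 9.53 CPM in CKO 1 to 3, which is 5 to 11 reads per library. Its groups overlapped (log2 fold change 0.51, 95% interval -0.33 to 1.34, limma's adjusted p = 0.483).

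Of the beta subunits that every cell uses, Psmb1 to Psmb7, 6 of 7 were higher without overlap between genotypes (14.5% of all genes tested). Of these 7 beta genes, 3 had an unadjusted p under 0.05 (11.2% of all genes, higher) and 0 passed the adjusted threshold (3.18%). Their summed level was 2103, 2226 and 2358 CPM in WT 1 to 3 and 2844, 3083 and 2809.7 CPM in CKO 1 to 3, a ratio of the means of 1.31. Psmb6, which carries the site that cleaves after acidic residues, was at 560.3, 588 and 622 CPM in WT 1 to 3 and 791, 932 and 796 CPM in CKO 1 to 3. All CKO libraries were above the WT libraries, with CKO 2 the highest (log2 fold change 0.50, 95% interval 0.19 to 0.82, limma's adjusted p = 0.0635). Psmb5, which carries the chymotrypsin-like site that the drug bortezomib blocks, was at 81.2, 99.1 and 101 CPM in WT 1 to 3 and 113, 144 and 103 CPM in CKO 1 to 3. Here CKO 3 was only just above WT 3 (log2 fold change 0.35, 95% interval -0.07 to 0.77, limma's adjusted p = 0.325). Psmb3, a structural subunit, had the largest log2 fold change of the beta genes with more than 10 CPM, at 56.5, 56.3 and 82.8 CPM in WT 1 to 3 and 104, 134 and 94.5 CPM in CKO 1 to 3 (log2 fold change 0.76, 95% interval 0.28 to 1.25, limma's adjusted p = 0.0709). The annotation holds 7 near-identical transcripts of Psmb3 in other genes, the most of any proteasome gene, which could share its reads. Psmb2, Psmb4 and Psmb1 had log2 fold changes of 0.39, 0.29 and 0.29, with limma's adjusted p between 0.155 and 0.318.

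Psmb7, which carries the trypsin-like site and is needed by every proteasome, was listed at 1.45, 1.5 and 0.845 CPM in WT 1 to 3 and 3.44, 5.77 and 0.867 CPM in CKO 1 to 3. These are 5 reads over the WT libraries and 14 over the CKO libraries, with each WT library at or under the floor, so no fold is given (95% interval of the log2 fold change -0.45 to 1.99). Psmd11, a scaffold subunit of the regulatory lid, was listed with 1 read in WT 2, 1 read in CKO 3 and 0 in the other 4 libraries. It was not tested. Per kb of exons they stood at 1.09 and 0.084 CPM in WT, far below the subunits they are built together with. Among genes that do not overlap them, no transcript was near-identical to Psmb7. For Psmd11 there were 2, neither of them in a gene of the table. Overlapping genes were left out of this search. In the annotation a gene on the same strand, Gm27634, overlaps Psmb7. Whether these low values come from the cartilage or from the counting of reads was not tested.

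**Figure D2:**
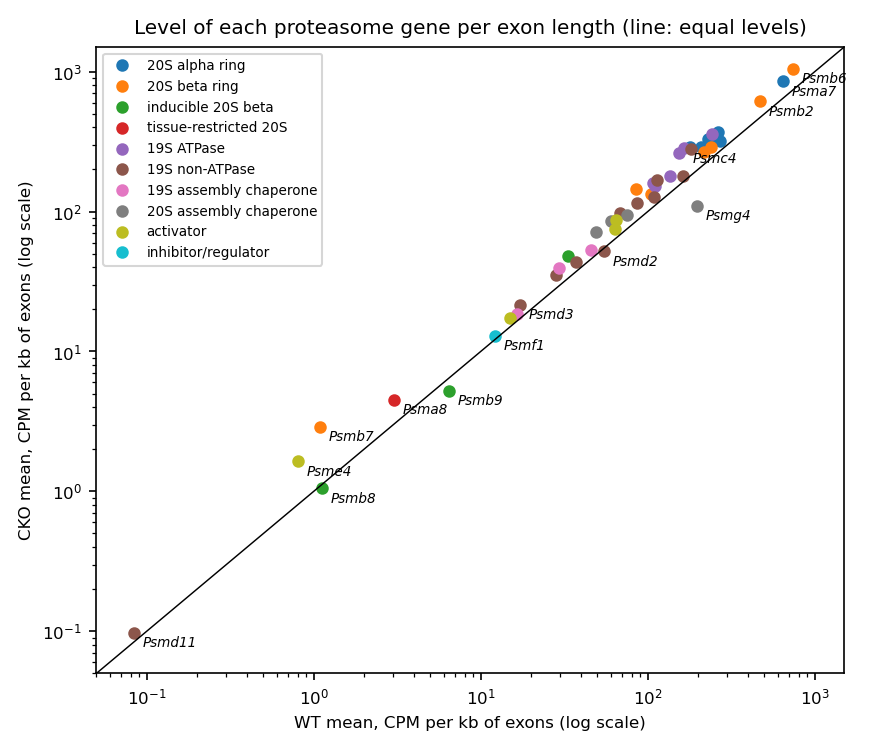
Mean level of each proteasome gene in WT (horizontal axis) and in CKO (vertical axis), in CPM per kb of exons on log scales, coloured by role. Most points lie above the line of equal levels, Psmg4, Psmd2, Psmb8 and Psmb9 lie below it, Psmb7 and Psmd11 lie far below the other subunits of the 26S complex, and Psmb11, at 0 in WT, is not drawn.

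Levels between genes were compared per length, as CPM per kb of the exons of a gene joined over its transcripts. The 29 subunits of the 26S complex other than Psmb7 and Psmd11 ranged in WT from 17.1 CPM per kb for Psmd3 to 739.5 for Psmb6, with a median of 163 and a 43.1-fold span. Alpha and beta genes held the upper end, with 649 CPM per kb for Psma7 and 473 for Psmb2. Non-ATPase genes held the lower end, with 28.1 for Psmd7 and 37.1 for Psmd1. The ATPase genes lay between 108 (Psmc6) and 242 (Psmc5). The classes overlapped, with the beta genes Psmb3 and Psmb5 at 85.1 and 104 and the non-ATPase gene Psmd8 at 182. Subunits that stand in equal number in the complex were thus not at equal CPM per kb. The transcripts used in cartilage may be shorter than the joined exons. Reads shared with near-identical copies, which Psmb3 and Psmb5 among others have, could also affect these values.

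The immunoproteasome is a form of the barrel in which interferon-induced subunits take the place of the catalytic ones, Psmb8 that of Psmb5, Psmb9 that of Psmb6 and Psmb10 that of Psmb7. Psmb8 and Psmb9 were close to or at the floor. Psmb8 had 1 to 4 reads in each library, with 7 reads over the WT libraries and 7 over the CKO libraries. Psmb9 was at 7.97, 9.76 and 8.45 CPM in WT 1 to 3 and 11, 5.05 and 5.2 CPM in CKO 1 to 3. Its CKO 1 value was the highest of the 6 and its CKO 2 and 3 values the lowest (log2 fold change -0.34, 95% interval -1.18 to 0.50, limma's adjusted p = 0.661). Psmb10 was the more abundant, at 49.3, 44.3 and 38 CPM in WT 1 to 3 and 66, 62.1 and 59.8 CPM in CKO 1 to 3. Every CKO library of Psmb10 was above every WT library, without passing the adjusted threshold (log2 fold change 0.51, 95% interval 0.08 to 0.94, limma's adjusted p = 0.159).

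The log2 ratio of Psmb9 to Psmb6, on the scale of CPM + 1, was -5.93 ± 0.14 (SD, n = 3) in WT and -6.77 ± 0.64 (SD, n = 3) in CKO. The difference of -0.84 gave p = 0.1 in the two-sided exact permutation test, which with 3 and 3 libraries cannot go lower (0.3 adjusted over the 3 ratios by the Benjamini-Hochberg method). It rests on 6 to 16 reads of Psmb9 per library, with CKO 1 all but level with WT 3 (-6.04 each). The ratio of Psmb8 to Psmb5 differed by -0.46 (exact two-sided permutation p = 0.2, adjusted 0.3), with Psmb8 at 4 reads or fewer. The ratio of Psmb10 to Psmb7 differed by -0.26 (exact two-sided permutation p = 0.7, adjusted 0.7), with Psmb7 at or near the floor. Psmb11, the catalytic subunit of thymic epithelium, was listed at 0 in 5 libraries and with 1 read in CKO 1, and was not tested.

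A list of 22 genes held genes of antigen presentation and the interferon response, which act with or are induced together with the immunoproteasome. All 22 were tested, with 16 positive (50.8% of all genes tested) and 6 negative log2 fold changes and a median of 0.62. Of its antigen presentation genes, H2-D1, H2-K1, Tapbp, Tap2 and Erap1 were negative (-1.03, -0.60, -0.33, -0.25 and -0.14). Nlrc5, Tap1 and B2m were positive (0.99, 0.92 and 0.01), and none of these genes was called. At limma's adjusted p under 0.05, 1 of the 22 was called higher and 0 lower (3.18% and 2.60% of all genes tested). The gene called was Ifit3, an interferon-induced antiviral gene, at 5.8, 11.3 and 16.1 CPM in WT 1 to 3 and 32.3, 118 and 33.8 CPM in CKO 1 to 3 (log2 fold change 2.20, 95% interval 1.09 to 3.30, limma's adjusted p = 0.0309). CKO 2 held by far the most, and the call was lost without WT 1, WT 2 or CKO 3 (adjusted p between 0.000232 and 0.133 over the alternatives, edgeR and DESeq2 included). Gbp2, an interferon-induced GTPase, met only the criterion of the study, from 4 reads in WT and 28 in CKO. B2m, the light chain of MHC class I, was at 748, 765 and 818 CPM in WT 1 to 3 and 801, 706 and 842 CPM in CKO 1 to 3 (log2 fold change 0.01, 95% interval -0.30 to 0.32, limma's adjusted p = 0.981). The summed level of the list was 1387, 1397 and 1893 CPM in WT 1 to 3 and 1794, 3148 and 1894 CPM in CKO 1 to 3, and CKO 2 again stood apart.

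The ATPases Psmc1 to Psmc6 form the ring that unfolds substrates and opens the gate of the barrel. In all 6 every CKO library lay above every WT library (14.5% of all genes tested). All 6 had an unadjusted p under 0.05 (11.2% of all genes, higher), and 3 rose past the adjusted threshold (3.18%). The median log2 fold change of the 6 was 0.57. Their summed level was 1413, 1433 and 1690.4 CPM in WT 1 to 3 and 2204, 2429 and 2241 CPM in CKO 1 to 3, a ratio of the means of 1.52. Psmc4 (ENSMUSG00000030603; chromosome 7, 28041707 to 28050101, GRCm38) stood at 235, 202 and 276 CPM in WT 1 to 3 and 391, 473 and 365 CPM in CKO 1 to 3 (log2 fold change 0.79, 95% interval 0.40 to 1.17, limma's adjusted p = 0.027). Psmc1 (ENSMUSG00000021178; chromosome 12, 100110154 to 100123405) stood at 223, 227 and 286 CPM in WT 1 to 3 and 378, 483 and 394 CPM in CKO 1 to 3 (log2 fold change 0.77, 95% interval 0.40 to 1.14, limma's adjusted p = 0.0262). In both the highest WT library was WT 3 and the highest CKO library CKO 2, and the groups stayed apart. Psmc5 (ENSMUSG00000020708; chromosome 11, 106256154 to 106263120) stood at 286, 317 and 349.7 CPM in WT 1 to 3 and 493, 472 and 456 CPM in CKO 1 to 3 (log2 fold change 0.58, 95% interval 0.26 to 0.90, limma's adjusted p = 0.0438). Psmc6 missed the threshold narrowly at 241 ± 17 CPM over the WT and 358 ± 29.2 CPM over the CKO libraries (SD, n = 3; log2 fold change 0.57, 95% interval 0.24 to 0.89, limma's adjusted p = 0.0508) and was called by edgeR's quasi-likelihood test on the recovered reads (adjusted p = 0.046). Psmc3 and Psmc2 had log2 fold changes of 0.47 and 0.39. With CPM scaled by TMM factors, which allow for a different make-up of the libraries, Psma2, Psmc1 and Psmc4 remained called and Psmc5 did not (limma's adjusted p = 0.0596).

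The other subunits of the regulatory particle are 11 Psmd genes of the base and the lid. Of the 10 tested, 9 had a positive log2 fold change (50.8% of all genes tested), with a median of 0.27. In 3 every CKO library lay above every WT library (14.5% of all genes), and 0 passed the adjusted threshold (3.18% higher and 2.60% lower). The 3 genes without overlap were Psmd8, Psmd14 and Psmd13, which belong to the lid. Psmd14, the enzyme that cuts the ubiquitin chain off the substrate, was at 146, 167 and 209 CPM in WT 1 to 3 and 239, 282 and 251 CPM in CKO 1 to 3 (log2 fold change 0.58, 95% interval 0.19 to 0.96, limma's adjusted p = 0.0857). Psmd8 was at 445, 407 and 349.7 CPM in WT 1 to 3 and 563, 742 and 542 CPM in CKO 1 to 3 (log2 fold change 0.61, 95% interval 0.23 to 0.99, limma's adjusted p = 0.0648), and Psmd13 at 124, 128 and 154 CPM in WT 1 to 3 and 180.2, 230.2 and 175 CPM in CKO 1 to 3 (log2 fold change 0.52, 95% interval 0.13 to 0.91, limma's adjusted p = 0.116). WT 1 was the highest WT library for Psmd8 and WT 3 for the other 2.

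Psmd4, one of the receptors for the ubiquitin chain, overlapped between genotypes at 176, 206 and 222 CPM in WT 1 to 3 and 215, 279 and 212 CPM in CKO 1 to 3 (log2 fold change 0.22, 95% interval -0.17 to 0.60, limma's adjusted p = 0.517). Psmd1 and Psmd2 are the large scaffolds of the base. Psmd2 was the 1 tested subunit of the 26S complex with a negative value, at 141, 176 and 167 CPM in WT 1 to 3 and 141, 183 and 139 CPM in CKO 1 to 3 (log2 fold change -0.07, 95% interval -0.47 to 0.32, limma's adjusted p = 0.859). The CKO libraries of Psmd2 spanned almost the same range as the WT libraries, and its interval includes 0. Psmd1 was at 97.8, 90.8 and 158 CPM in WT 1 to 3 and 119.7, 157 and 127 CPM in CKO 1 to 3, with WT 3 above all CKO libraries (log2 fold change 0.25, 95% interval -0.25 to 0.76, limma's adjusted p = 0.575). Psmd12, Psmd7, Psmd3 and Psmd6 had log2 fold changes of 0.38, 0.28, 0.26 and 0.14, each with overlap. In Psmd3 and Psmd7 the high value came from CKO 2 (68.6 and 76.5 CPM, against 34.4 and 39.2 in CKO 1 and 36.4 and 52 in CKO 3). Summed over the 11 genes the level was 1695, 1687 and 1793 CPM in WT 1 to 3 and 2043, 2668 and 2024 CPM in CKO 1 to 3. CKO 2 stood above CKO 1 and CKO 3, which were close to each other and above the WT libraries. Whether the ATPase and the non-ATPase genes differ in their response was not tested.

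**Figure D3:**
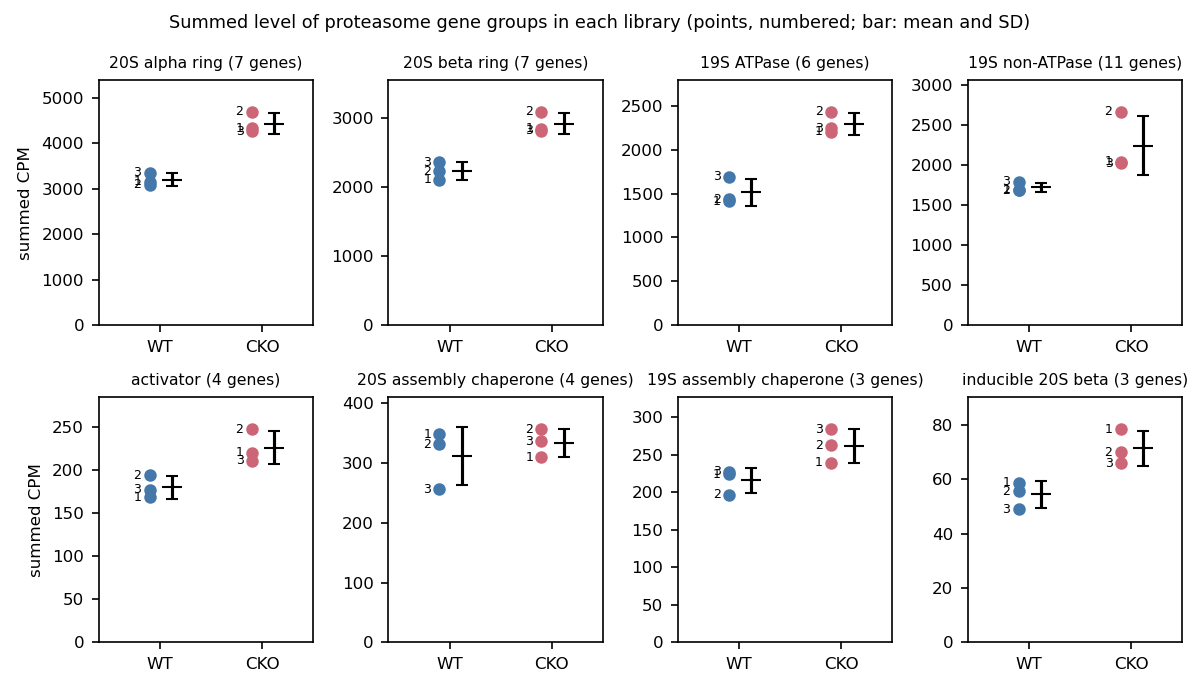
Summed CPM (vertical axis, from 0) of 8 groups of proteasome genes in each of the 3 WT and 3 CKO libraries (numbered points), with the mean and SD of each genotype as bars. The genotypes do not overlap except for the assembly chaperones of the 20S core, whose sum includes Psmg4, and CKO 2 is the highest library of the rings, the ATPases, the non-ATPases and the activators.

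The assembly chaperones of the barrel work in pairs, Psmg1 with Psmg2 and Psmg3 with Psmg4. Psmg1 was at 51.5, 54.8 and 47.3 CPM in WT 1 to 3 and 77, 71.5 and 75.4 CPM in CKO 1 to 3 (log2 fold change 0.54, 95% interval 0.14 to 0.93, limma's adjusted p = 0.112). Psmg3 was at 54.4, 51 and 54.1 CPM in WT 1 to 3 and 72.2, 79.4 and 75.4 CPM in CKO 1 to 3 (log2 fold change 0.50, 95% interval 0.11 to 0.89, limma's adjusted p = 0.128). Both genes had narrow groups that did not overlap. Psmg2 was at 101, 109.6 and 81.9 CPM in WT 1 to 3 and 105, 126 and 136 CPM in CKO 1 to 3, with overlap (log2 fold change 0.32, 95% interval -0.09 to 0.73, limma's adjusted p = 0.355). Psmg4, the partner of Psmg3, had a negative log2 fold change, at 139.9, 116 and 72.7 CPM in WT 1 to 3 and 55, 79.4 and 48.5 CPM in CKO 1 to 3. WT 1 and WT 2 were above all CKO libraries and WT 3 was below CKO 2 (log2 fold change -0.81, 95% interval -1.42 to -0.21, limma's adjusted p = 0.114). Psmg4 was called lower without WT 3 (1.82% of all genes) and without CKO 2 (5.03%), and over the 6 fits that each left out 1 library its log2 fold change was between -1.08 and -0.61. Psmd5, Psmd9 and Psmd10 are chaperones of the base and not part of the finished complex. Psmd9 was at 76.1, 73.5 and 79.4 CPM in WT 1 to 3 and 86.7, 97.4 and 122 CPM in CKO 1 to 3 without overlap (log2 fold change 0.40, 95% interval -0.01 to 0.81, limma's adjusted p = 0.245). Psmd10, also known as gankyrin, was at 64.5, 62.3 and 74.3 CPM in WT 1 to 3 and 75, 70 and 90.1 CPM in CKO 1 to 3, and Psmd5 at 83.4, 60.8 and 73.5 CPM in WT 1 to 3 and 77.7, 95.3 and 71.9 CPM in CKO 1 to 3, both with overlap (log2 fold changes 0.22 and 0.17).

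Activators bind the ends of the barrel in place of the regulatory particle. Psme1 and Psme2 together form the interferon-induced PA28 ring. Psme2 was at 61.6, 66.8 and 60.8 CPM in WT 1 to 3 and 91.5, 84.4 and 80.6 CPM in CKO 1 to 3 without overlap (log2 fold change 0.43, 95% interval 0.05 to 0.81, limma's adjusted p = 0.18). Its partner Psme1 was at 60.9, 73.5 and 79.4 CPM in WT 1 to 3 and 72.2, 109 and 68.5 CPM in CKO 1 to 3, with CKO 1 and CKO 3 inside the WT range (log2 fold change 0.20, 95% interval -0.29 to 0.69, limma's adjusted p = 0.661). Psme2b, a gene near-identical to Psme2, is listed with 1 read in all. Psme3, the nuclear PA28 activator, was at 42, 48.8 and 28.7 CPM in WT 1 to 3 and 44.7, 41.9 and 52 CPM in CKO 1 to 3 (log2 fold change 0.24, 95% interval -0.30 to 0.77, limma's adjusted p = 0.623). Psme4, the large activator PA200, had the largest log2 fold change of the 46 genes, at 3.62, 4.5 and 7.6 CPM in WT 1 to 3 and 11, 11.5 and 9.53 CPM in CKO 1 to 3 (log2 fold change 0.95, 95% interval 0.14 to 1.76, limma's adjusted p = 0.165). It rests on 20 reads over the WT libraries and 43 over the CKO libraries, and the intervals of its neighbours in the order overlap its own. Psmf1, the inhibitor PI31 that also carries proteasomes, was at 44.9, 58.5 and 43.1 CPM in WT 1 to 3 and 58.5, 40.4 and 56.3 CPM in CKO 1 to 3, with the genotypes intermingled (log2 fold change 0.08, 95% interval -0.42 to 0.58, limma's adjusted p = 0.883).

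**Figure D4:**
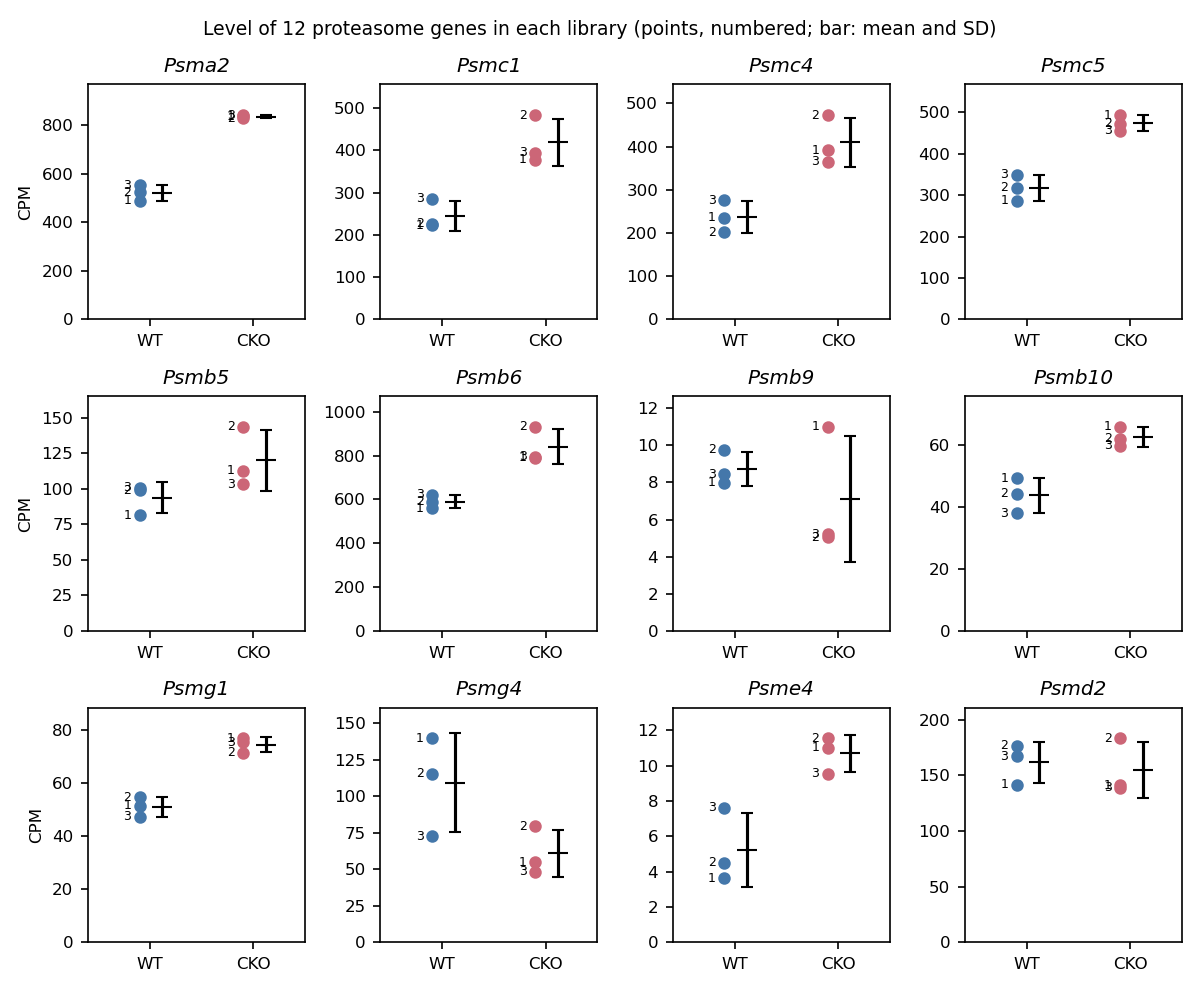
Level in CPM (vertical axes, from 0) of 12 proteasome genes in each WT and CKO library (numbered points), with the mean and SD as bars. Psma2, Psmc1, Psmc4 and Psmc5 are the genes past the adjusted threshold and have separate groups, Psmg4 is lower in CKO with overlap between WT 3 and CKO 2, and Psmd2 overlaps throughout.

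**Figure D5:**
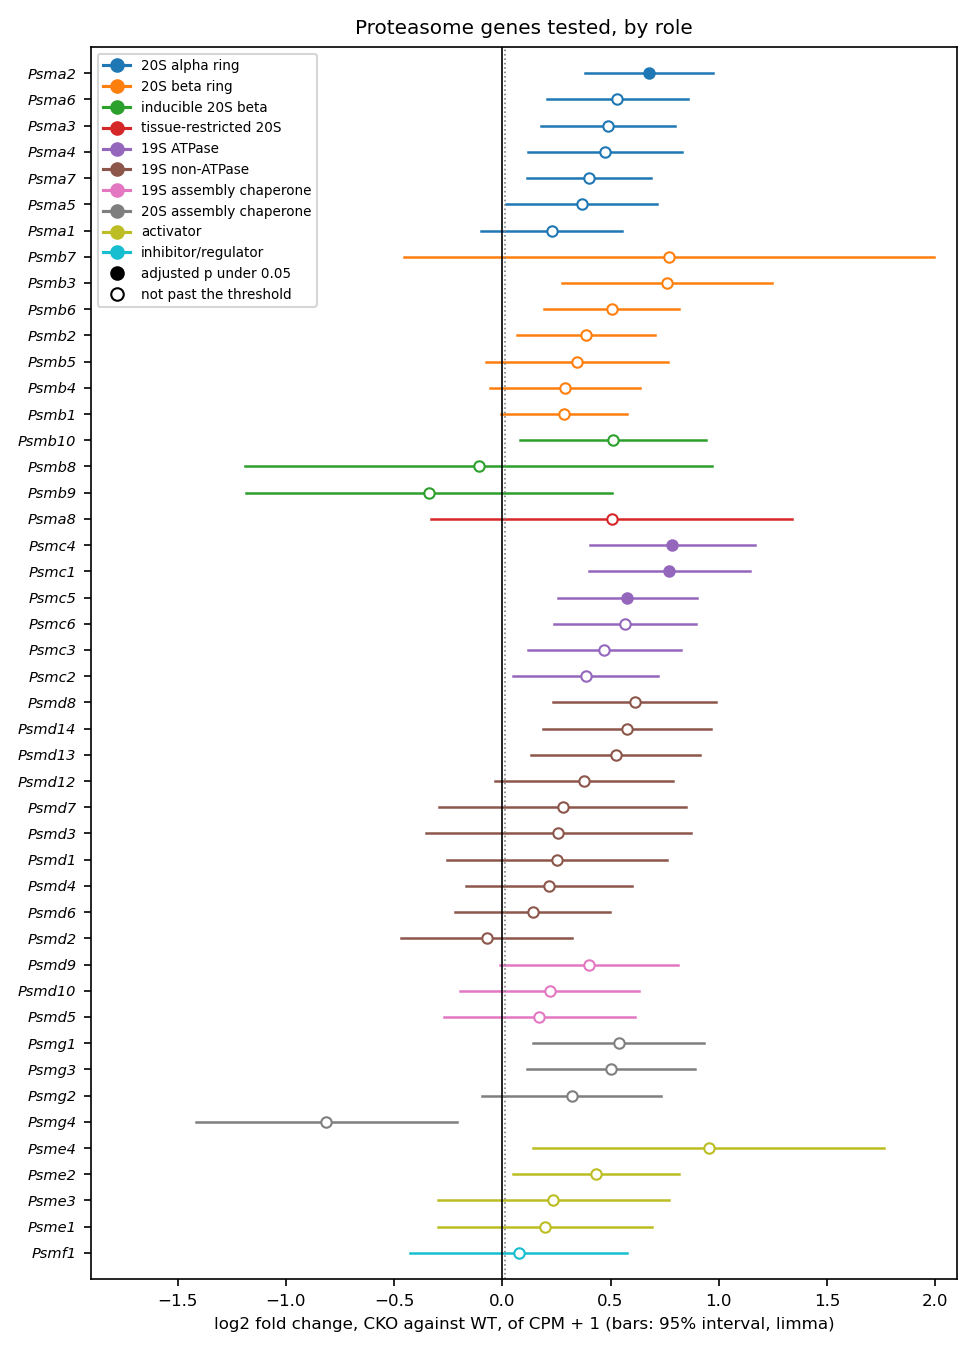
Log2 fold change between CKO and WT on the scale of CPM + 1 (horizontal axis) of the 46 proteasome genes tested, by role, with the 95% interval of limma as bars. Filled points mark the 4 genes past the adjusted threshold, and 23 of the 46 intervals lie above 0, 1 lies below it and 22 include it.

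Reads shared with copies of a gene could affect these values. Near-identical transcripts of other genes (at least 90% identity over at least 300 bases) were found for 14 of the 48 genes. Genes that overlap a proteasome gene in the annotation were left out of this search. The 33 tested genes without such copies had a median log2 fold change of 0.39, with 17 of 33 without overlap and higher in CKO. The 13 with copies had a median of 0.48, with 11 of 13 (14.5% of all genes tested were higher without overlap). Of the genes that rose, Psmc4 and Psmc5 have no such copy and Psma2 and Psmc1 have 2 each. Genes on the same strand overlap Psma2 (AW209491) and Psmc5 (Gm23645) in the annotation, and the effect of these overlaps on the counts was not tested. Among the 41 genes averaging 10 CPM or more, 27 were higher without overlap (65.9%), against 18.7% of all 6827 genes at that level, and 39 had a positive value (95.1%, against 51.9%).

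Around the complex, 31 of 32 genes of a list of proteasome partners were in the table and 30 were tested, of which 16 had a positive and 14 a negative log2 fold change, with a median of 0.10. Of the 30, 2 were called higher and 2 lower (3.18% and 2.60% of all genes tested). Pomp, the maturation chaperone of the barrel, rose, with 415, 411 and 448 CPM in WT 1 to 3 and 589, 654 and 599.7 CPM in CKO 1 to 3 (log2 fold change 0.53, 95% interval 0.23 to 0.83, limma's adjusted p = 0.0486). Usp14, a deubiquitinase that binds the regulatory particle, also rose, with 124, 125 and 94.6 CPM in WT 1 to 3 and 195, 165 and 189.8 CPM in CKO 1 to 3 (log2 fold change 0.68, 95% interval 0.30 to 1.07, limma's adjusted p = 0.0484). Both had groups apart from each other. The subunits whose names do not begin with Psm were Sem1, at 974, 1060.4 and 977 CPM in WT 1 to 3 and 1336, 1125 and 1376 CPM in CKO 1 to 3 (log2 fold change 0.35, 95% interval 0.03 to 0.66, limma's adjusted p = 0.191), and the ubiquitin receptor Adrm1, at 133, 127 and 169.8 CPM in WT 1 to 3 and 157, 243 and 141 CPM in CKO 1 to 3 (log2 fold change 0.30, 95% interval -0.19 to 0.80, limma's adjusted p = 0.481). Sem1 had no overlap and Adrm1 did.

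Nfe2l1 (ENSMUSG00000038615), which encodes the factor Nrf1 that drives transcription of proteasome genes when proteolysis fails, fell. It was at 218, 231 and 265 CPM in WT 1 to 3 and 118, 112 and 107 CPM in CKO 1 to 3 (log2 fold change -1.08, 95% interval -1.42 to -0.73, limma's adjusted p = 0.00466). Each CKO library held about the same and lay far below each WT library, the gene met the criterion of the study too, and it was called in each of the 6 fits without 1 library. Fbxo7, an F-box protein that binds Psmf1, also fell, with 121, 107 and 68.4 CPM in WT 1 to 3 and 51.6, 52.7 and 48.5 CPM in CKO 1 to 3 (log2 fold change -0.90, 95% interval -1.41 to -0.39, limma's adjusted p = 0.047), and of the 6 fits that each left out 1 library it was called in those without WT 3 and without CKO 2. Of these 6 fits Pomp and Usp14 were called in the 1 without CKO 2, and neither was called after TMM scaling (limma's adjusted p = 0.0672 and 0.069). The activity of the Nfe2l1 protein, which is itself made by cleavage and degraded by the proteasome, was not measured here. Only Pomp, Usp14, Nfe2l1 and Fbxo7 passed the adjusted threshold among the 30 genes of the list.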

How the data were processed

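The 6 libraries, 3 WT and 3 CKO, were made with a stranded mRNA kit. The submitters' processing notes name cutadapt 2.5, HISAT2 and featureCounts 1.6.3, and the genome build and annotation are not given in the sources used here. The authors deposited CPM for 15803 genes and 6 libraries. In each column 100% of the values were whole multiples of 1 read within 0.01 reads, and these reads were recovered. With limma 3.58.1 in R 4.3.3, log2(CPM + 1) was fitted on genotype for the 12155 genes averaging 1 CPM or more, moderated along a mean-variance trend and with p adjusted after Benjamini and Hochberg over the genes tested. On this scale the changes of low genes are understated. The floor of 3 reads covers counting error only. edgeR 4.0.16 and DESeq2 1.42.0 were run on the recovered reads, where they tested 7704 and 8440 genes. The other alternatives were a pseudocount of 0.1, no filter, a filter of 10 CPM, TMM scaling, the replicate number as a term and each library left out. Positions and exon lengths came from GENCODE M21 on GRCm38, in which all 48 identifiers were found, promoters from RefSeq on GRCm38.p6, and near-identical transcripts from BLAST 2.17.0. Named with values in each library are chaperones, activators, the inhibitor, inducible, tissue-restricted and catalytic subunits, members past a threshold and, among members of at least 10 CPM, the 3 largest and 3 smallest log2 fold changes. Members and lists were chosen with earlier results of these data known. Genes named outside this rule were chosen after their values were seen. Values of some genes of the partner list are not reported here.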

Additional observations from a re-analysis of the deposited data

How the results depend on the processing

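The median log2 fold change of the proteasome genes moved by less than the spread between libraries under each of the 13 alternatives and stayed between 0.35 and 0.45. The number of members called higher, 4 as reported, was 7 with a filter of a mean of at least 10 CPM, 0 by the criterion of the study and 0 to 9 with each library left out in turn, and within 1.5 times the reported number with the other pseudocount, no filter, TMM scaling, edgeR (5 calls) and DESeq2 (3 calls). The number called lower, 0, was 0 to 1 with a library left out. Replicate numbers are shared by the genotypes. Same-numbered libraries did not deviate together over all genes tested (r = 0.0378, -0.131 and -0.103 for numbers 1, 2 and 3). With 3 libraries per genotype these correlations cannot exclude a litter or batch shared by libraries of 1 number. The paper compared mice with their littermates, and the library labels do not name litters. With the replicate number as a block 0 members were called higher, where 1.85% of all genes were, and 0 of the 3 WT libraries correlated best with the CKO library of its own number. With a library left out, the sign turned for Psmd3 (log2 fold change from -0.053 to 0.43), Psme1 (-0.011 to 0.32), Psmb8 (-0.40 to 0.12), Psmf1 (-0.020 to 0.24) and the log2 ratio of Psmb10 to Psmb7 (-0.75 to 0.16), none of them called. Over all alternatives limma's, edgeR's or DESeq2's adjusted p was 0.00551 to 0.0952 for Psma2, 0.0101 to 0.124 for Psmc1, 0.0104 to 0.128 for Psmc4 and 0.0219 to 0.175 for Psmc5. The cause of these shifts was not tested. At 1153871 to 1454094 reads per library, genes with few reads, such as Psmb8, Psmb9, Psma8 and Psme4, have wide intervals, and changes smaller than these were not detectable.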

Other observations

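Other cytoplasmic complexes of many subunits were looked at beside the proteasome. The COP9 signalosome, which is built like the lid of the regulatory particle and controls ubiquitin ligases, had 10 genes tested, with 8 positive log2 fold changes, and a median of 0.32. Every CKO library lay above every WT library in 6 of the 10 (14.5% of all genes tested), and 1 was called higher and 0 lower at limma's adjusted p under 0.05 (3.18% and 2.60% of all genes tested). The gene called was Cops5, the catalytic subunit, with 112, 113 and 101 CPM in WT 1 to 3 and 162, 167 and 182 CPM in CKO 1 to 3 (log2 fold change 0.64, 95% interval 0.29 to 0.99, limma's adjusted p = 0.0408). The CCT chaperonin, a ring that folds actin and tubulin, had 7 of 8 genes in the table, with 6 positive log2 fold changes, and a median of 0.35. Of these 7, 6 were higher without overlap (14.5% of all genes tested), 1 was called higher (3.18%) and 0 lower (2.60%). Its called gene was Cct3, with 166, 179 and 253 CPM in WT 1 to 3 and 345, 397 and 346 CPM in CKO 1 to 3 (log2 fold change 0.88, 95% interval 0.47 to 1.29, limma's adjusted p = 0.0234). With 1 library left out, Cops5 was called only without CKO 2, and Cct3 only without WT 3 and without CKO 2. After TMM scaling Cops5 was not called (limma's adjusted p = 0.0569) and Cct3 was (0.0249). The medians of both complexes were near the 0.39 of the proteasome genes, and the differences between the 3 complexes were not tested.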
